A study of Mus musculus with 48 samples.

Results

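The 10 genes described here are core genes and outputs of the circadian clock: Per1, Per2, Per3, Cry1, Cry2, Nr1d1, Nr1d2, Dbp, Arntl and Ciart. They were picked by symbol among the 24421 genes of the count matrix, with earlier results of these data known, and all 10 had enough reads to be tested. In nearly every cell of a mammal, the product of Arntl (BMAL1) and its partner CLOCK bind E-box elements in DNA and switch on the Per and Cry genes, whose proteins later return to the nucleus and shut their own genes down. The same pair drives Nr1d1 and Nr1d2, which encode REV-ERB repressors of Arntl, and the output genes Dbp and Ciart, so that over a day Arntl runs opposite to most of the others. Per1 and Per2 have a further role as inducible genes: signals that raise cAMP, calcium or glucocorticoid hormone can raise them acutely in many tissues.

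The libraries were made from the CA region of the hippocampus (CA1, CA2 and CA3, with the dentate gyrus removed) of 48 male mice, 1 library per mouse, and the labels give an age of 8 weeks. The Glu-CB1 line carries floxed CB1 alleles and, in the knockouts, Nex-Cre, which deletes the cannabinoid receptor CB1 in cortical glutamatergic neurons. The GABA-CB1 line carries the same floxed alleles and, in the knockouts, Dlx5/6-Cre, which deletes CB1 in forebrain GABAergic neurons, and the CB1-WT mice of each line were littermates. Mice were taken from the home cage (basal state) or after 5 min in an open field arena, with tissue taken an hour afterwards in the study's protocol. In the Glu-CB1 line there were 5 CB1-WT and 7 CB1-KO mice in each state. In the GABA-CB1 line there were 6 and 6 at basal and, by the labels, 7 CB1-WT and 5 CB1-KO mice after the open field. The study's text gives the sizes of these last groups the other way round. The labels were used, and the Cnr1 levels below go with them. Sequenced mice had been selected by the study on dissection purity, behaviour and Arc expression. The study places the open field exposure in the earlier part of the light phase and states no time of day for the basal mice. Whether the states differed in hour is thus not known. The hour at which each mouse was killed is not given in the labels, and its part in the values below was not tested.

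Each library held between 25892654 and 34091080 counted reads. The deleted gene Cnr1, read over all its exons, lay between 204.2 and 249.4 CPM (counts scaled to library size) in the Glu-CB1-KO libraries and between 100.3 and 158.4 CPM in the GABA-CB1-KO libraries, against 310.8 to 411.7 CPM in the CB1-WT libraries of both lines, so that no library went against its genotype label. A group of 14 libraries stood apart from the other 34 on the first principal component, which held 17.5% of the variance, and 3 libraries held over 500 CPM of the choroid plexus gene Ttr. Summed choroid plexus markers (6 genes) ranged from 39.9 to 1509 CPM in basal and from 47.6 to 4051 CPM in open field libraries. The hemoglobin genes Hbb-bs, Hba-a1 and Hba-a2 were at 0 in every library, and the reason was not tested. With Alas2, the blood list of 4 genes summed to 0.820 to 2.29 CPM in basal and 0.781 to 2.33 CPM in open field libraries. The zeros are thus no measure of blood in the tissue. Summed markers of CA1 pyramidal cells were at 623.3 to 853.4 CPM and 597.7 to 831.5 CPM in the 2 states, and those of dentate granule cells at 198.3 to 403.0 CPM and 194.3 to 362.0 CPM. Within the dentate list, Calb1 had the highest median over all libraries, 123.3 CPM. Tdo2, the dentate marker used by the study, had the lowest, 4.94 CPM. Summed markers of the suprachiasmatic nucleus and hypothalamus had medians of 33.1 and 33.7 CPM. Over all libraries the medians of these genes were 19.0 CPM for Vip, 6.90 CPM for Rgs16 and 6.54 CPM for Prokr2. Those of Avp and Six6 were 0.547 and 0.0319 CPM. The sum thus rests mainly on Vip and does not show tissue of these regions in the samples.

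The DNA in front of the genes is shown first for the members in which a searched clock or cAMP element lay before the start, since these elements are the route by which clock and cAMP signals are known to reach such genes. Windows of 300 bases (250 before to 50 after each start) came from RefSeq, build GRCm38.p6, and matched 9 of the 10 genes, not Per2. Motifs were searched on both strands: the E-box CACGTG, the D-box TTATGTAA or TTACGTAA, the REV-ERB and ROR element TAGGTCA, the cAMP response element TGACGTCA and the TGACGT that forms part of it. The 250 bases before the start are printed 5′ to 3′ along the gene's strand, with the motif letters in capitals.
Per1, first start, chr11:69098699-69098948, plus strand: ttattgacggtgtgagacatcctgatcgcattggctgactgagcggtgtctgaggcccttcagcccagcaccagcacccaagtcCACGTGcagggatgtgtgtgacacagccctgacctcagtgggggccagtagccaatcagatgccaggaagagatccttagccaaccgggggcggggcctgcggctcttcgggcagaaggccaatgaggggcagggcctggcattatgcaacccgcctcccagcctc
Per1, second start, chr11:69099902-69100151, plus strand: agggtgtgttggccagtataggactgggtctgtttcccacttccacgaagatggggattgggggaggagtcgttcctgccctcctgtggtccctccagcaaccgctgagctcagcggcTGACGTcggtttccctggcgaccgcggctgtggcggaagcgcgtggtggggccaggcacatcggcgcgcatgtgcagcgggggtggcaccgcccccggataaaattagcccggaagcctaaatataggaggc
Per3, chr4:151044666-151044915, minus strand: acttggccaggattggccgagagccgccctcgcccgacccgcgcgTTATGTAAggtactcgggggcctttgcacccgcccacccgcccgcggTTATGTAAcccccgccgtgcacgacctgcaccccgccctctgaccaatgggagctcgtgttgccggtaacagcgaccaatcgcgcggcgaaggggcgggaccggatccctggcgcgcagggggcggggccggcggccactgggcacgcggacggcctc
Cry1, chr10:85185055-85185304, minus strand: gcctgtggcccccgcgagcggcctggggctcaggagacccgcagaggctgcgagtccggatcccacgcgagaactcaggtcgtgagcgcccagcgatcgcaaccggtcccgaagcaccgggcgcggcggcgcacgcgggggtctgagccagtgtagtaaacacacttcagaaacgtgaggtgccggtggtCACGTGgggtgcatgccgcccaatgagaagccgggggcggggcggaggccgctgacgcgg
Ciart, chr3:95882229-95882478, minus strand: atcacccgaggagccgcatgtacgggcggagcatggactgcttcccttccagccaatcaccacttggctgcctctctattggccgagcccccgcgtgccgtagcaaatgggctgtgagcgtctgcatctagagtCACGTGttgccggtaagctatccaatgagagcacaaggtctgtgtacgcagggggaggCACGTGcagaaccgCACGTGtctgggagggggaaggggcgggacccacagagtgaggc
The E-box was in 3 of the 11 member windows, against 7.15% of 32851 mouse promoter windows, and these belonged to 3 of the 9 genes. Ciart held 3 E-boxes, starting 116, 58 and 44 bases before the start. Per1 held 1 at its first start, 166 bases before, and Cry1 held 1, 60 bases before. Per3 held 2 D-boxes, an element that 1.06% of all windows held. The second start of Per1 had TGACGT 132 bases upstream, a run in 7.51% of all windows, and the whole TGACGTCA, in 1.79% of all windows, was in none of the 11 member windows. TAGGTCA, in 2.61% of all windows, lay 31 bases into the transcript at 1 of the 2 starts of Arntl. Such matches describe letters and not binding, and no match in a window says nothing of elements elsewhere.

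To order the genes by level, counts were also expressed per kilobase of exon (RPKM). Cry2, a repressor of the negative limb, was highest at 42.6 ± 3.24 RPKM (SD, n = 48), and the repressor Nr1d1 followed at 32.9 ± 4.04 RPKM. Dbp, which encodes a D-box activator, was at 29.4 ± 6.04 RPKM, and Nr1d2, the second REV-ERB gene, at 23.8 ± 2.51 RPKM. Per1 was at 18.6 ± 3.43 RPKM. Per3, Arntl and Per2 could not be ordered beyond their spread, at 12.7 ± 2.78, 12.7 ± 1.57 and 12.3 ± 3.31 RPKM. Ciart, a repressor of CLOCK and BMAL1, at 6.98 ± 2.06 RPKM and Cry1 at 6.30 ± 2.07 RPKM were lowest and also lay within each other's spread, as did Nr1d1 and Dbp, and Dbp and Nr1d2. The Dbp value has a limit of its own: 539 bases, 32.1% of its exons in mm10 (chr7:45705247-45710203), overlap Sphk2 on the opposite strand. Reads were counted by strand, but the amplification kit is not stated to keep strand, so reads of the pair could not be told apart there. Sphk2 varied from 22.7 to 32.5 CPM, and its deviations from group means had r = -0.42 with those of Dbp over the 48 libraries. Cry2 (chr2:92403647-92434069) shares 149 bases, 3.72% of its exons, with D930015M05Rik on the opposite strand.

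**Figure D1:**
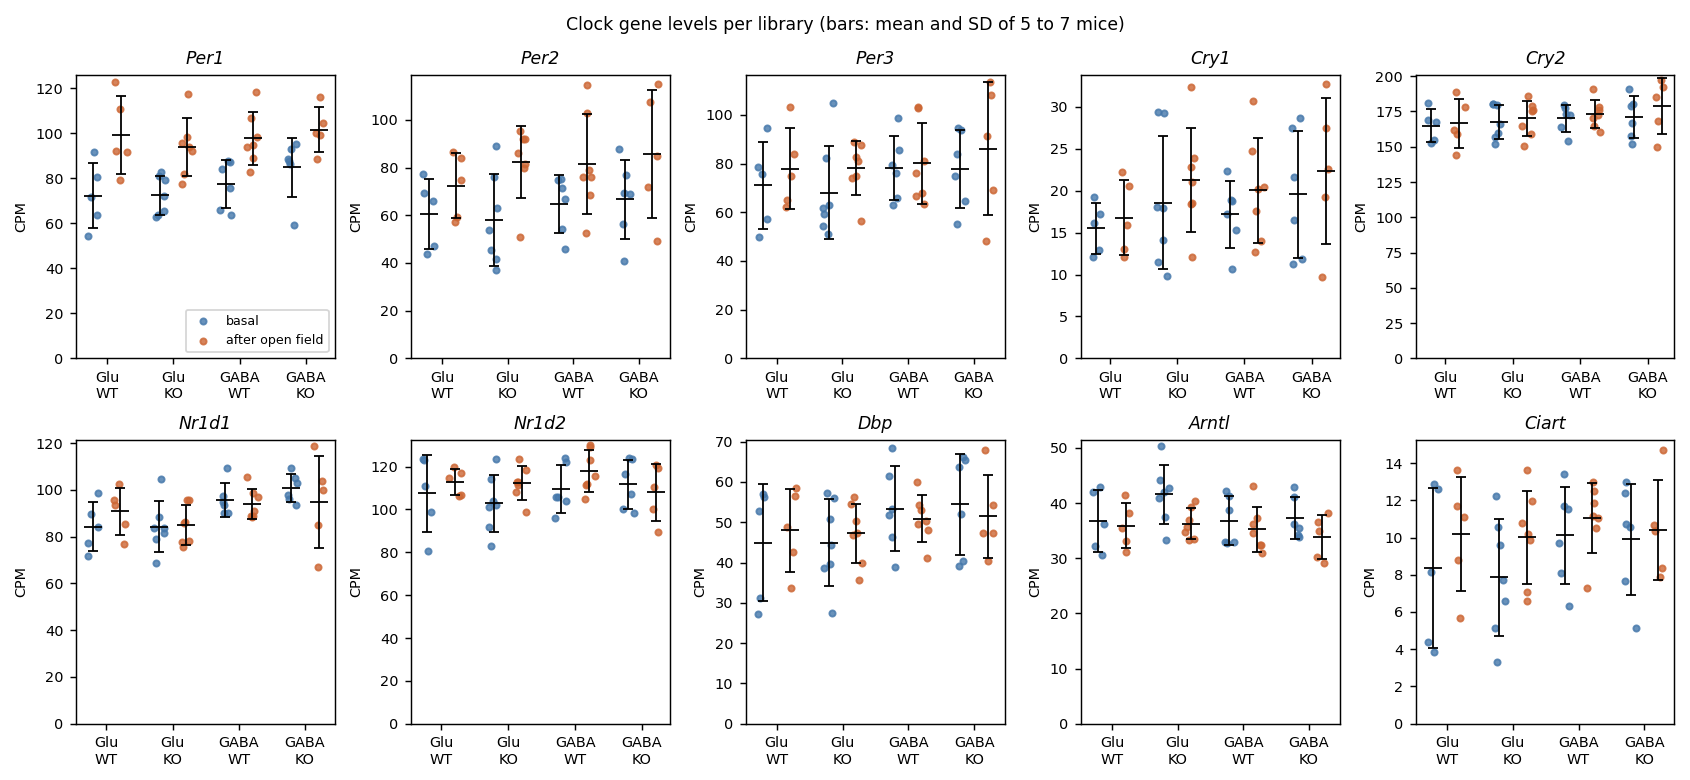
Level of each clock gene in every library, in CPM on a linear axis from 0, by line, genotype and state; points are mice, and bars give the mean and SD of 5 to 7 mice. Per1 lies higher after the open field in all 4 kinds of mice, while groups of Dbp and Nr1d1 overlap throughout.

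The first question was whether the open field shifted these genes. Per1, the most readily induced member of the Period family, rose after the open field by 0.36 on the log2 scale over all mice, and Per2 rose by 0.36, while the other 8 clock genes did not pass the test. In the Glu-CB1-WT mice, Per1 was at 80.4, 63.7, 91.5, 71.8 and 54.1 CPM in the basal libraries and at 110.9, 79.2, 122.7, 92.2 and 91.8 CPM after the open field. In the Glu-CB1-KO mice, the lowest, median and highest libraries were at 62.9, 71.9 and 82.7 CPM in the basal state and at 77.6, 94.0 and 117.3 CPM after the open field. So 4 of 5 and 5 of 7 open field libraries lay above every basal library of their own kind, with some overlap in both. In the GABA-CB1-WT mice, Per1 ran from 63.9 over a median of 79.9 to 87.7 CPM in the basal state and from 82.7 over 94.8 to 118.4 CPM after the open field. In the GABA-CB1-KO mice, the basal libraries ran from 59.3 over 88.0 to 95.1 CPM, and the open field libraries were at 88.6, 104.4, 99.2, 116.0 and 100.01 CPM. Here 6 of 7 and 4 of 5 open field libraries exceeded all basal libraries of their kind, and over all mice 22 of 24 open field libraries exceeded the basal median.

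In the Glu-CB1 line the log2 difference of Per1 was 0.42 (SE 0.084, adjusted p = 0.0135, 24 libraries) by the quasi-likelihood test of edgeR, with p-values adjusted over all genes tested by the Benjamini-Hochberg procedure. Mice of the GABA-CB1 line gave 0.30 (SE 0.073, adjusted p = 0.0452), and over the 48 libraries of both lines, which include those of each line, it was 0.36 (SE 0.058, adjusted p = 5.27e-05), a fold of 1.28. The call in the GABA-CB1 line was near the threshold: it was lost in 17 of 24 refits that each left out 1 library (highest adjusted p = 0.0992, without GABA-CB1-KO open field replicate 4), whereas the Glu-CB1 and the pooled calls held in all 24 and 48 such refits. It was also lost without the 14 libraries that stood apart (log2 0.30, adjusted p = 0.174) and without the 3 libraries rich in Ttr (log2 0.28, adjusted p = 0.122), and Per1 stayed called over all mice in both cases. As background, 1.3% of 15355 genes were called in the Glu-CB1 line, 1.03% of 15374 in the GABA-CB1 line and 8.63% of 15570 over all mice, against 1 of 10, 1 of 10 and 2 of 10 clock genes. The effect of the open field on Per1 differed between the lines by -0.12 (SE 0.115, GABA-CB1 minus Glu-CB1, edgeR adjusted p = 1), with a 95% interval of -0.34 to 0.11.

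Per2, whose protein pairs with PER1 and the cryptochromes, moved by a like amount but varied more between mice. Its basal libraries ran from 36.8 over a median of 66.4 to 89.2 CPM, and its open field libraries from 49.2 over 80.7 to 115.1 CPM (n = 24 each). The states overlapped widely, although 19 of 24 open field libraries exceeded the basal median. The log2 difference was 0.36 (SE 0.102, edgeR adjusted p = 0.0178) over all mice. Separately, the Glu-CB1 line gave 0.38 (SE 0.136, edgeR adjusted p = 0.183) and the GABA-CB1 line 0.35 (SE 0.140, edgeR adjusted p = 0.267), neither of which passed the test. The pooled call held in all 48 refits without 1 library (highest adjusted p = 0.0364) and ended without the 14 libraries that stood apart (log2 0.37, adjusted p = 0.0529) and without the 3 rich in Ttr (log2 0.33, adjusted p = 0.0501). Both genes had higher mean CPM after the open field in 4 of 4 kinds of mice. The same held in 5 of 5 ranges of the number that ends each sample title (ranges 1 to 3 hold Glu-CB1 mice, 4 and 5 GABA-CB1 mice). Cry1, which was not called, was also higher in 4 of 4 kinds and 5 of 5 ranges. Arntl, not called either, was higher in 0 of 4 and 0 of 5. A steady direction thus did not set the called genes apart.

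**Figure D2:**
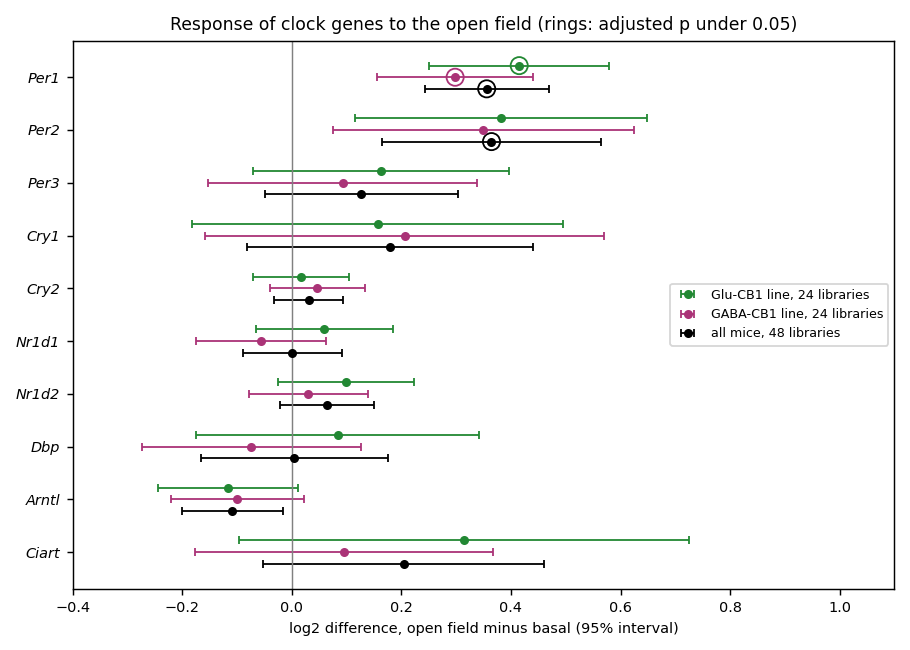
Log2 difference between open field and basal libraries for each clock gene, in the Glu-CB1 line (green), the GABA-CB1 line (purple) and all 48 libraries (black); bars are 95% intervals by normal approximation and rings mark adjusted p under 0.05 in edgeR. Per1 carries a ring in all 3 fits and Per2 in the fit of all mice only, and the intervals of Dbp and Nr1d1 lie around 0.

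Per3, the third Period gene, did not pass the test. It had basal libraries at 49.7 to 105.0 CPM (median 75.2) and open field libraries at 48.4 to 113.3 CPM (median 78.6), a log2 difference of 0.13 (SE 0.090, edgeR adjusted p = 0.455) over all mice. The ratio of Per2 to Per3 in the same library ran from 0.621 to 1.07 in the basal state (median 0.844) and from 0.789 to 1.25 after the open field (median 1.00), and the ratio of Per1 to Per3 had medians of 1.03 and 1.21. These ratios were not tested between states. Of the cryptochromes, Cry1 went from a median of 17.2 to 20.3 CPM with a log2 difference of 0.18 (SE 0.133, edgeR adjusted p = 0.479), and Cry2 from 168.5 to 173.9 CPM with one of 0.03 (SE 0.032, edgeR adjusted p = 0.653).

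Among the REV-ERB genes, Nr1d1 had medians of 91.7 and 89.8 CPM and a log2 difference of 0.00 (95% interval -0.089 to 0.091, edgeR adjusted p = 0.993), and Nr1d2 had medians of 105.8 and 112.9 CPM and a log2 difference of 0.06 (edgeR adjusted p = 0.432). The output gene Dbp ran from 27.1 to 68.4 CPM in basal and from 33.6 to 67.8 CPM in open field libraries. Its log2 difference was 0.00 (95% interval -0.17 to 0.17, edgeR adjusted p = 0.988). Ciart, which gave the fewest reads, was at 3.30 to 13.4 CPM in basal and 5.68 to 14.7 CPM in open field libraries, with a log2 difference of 0.20 (SE 0.131, edgeR adjusted p = 0.390). Arntl, the activator, was the member with the lowest difference, -0.11 (SE 0.047, unadjusted p = 0.0247, edgeR adjusted p = 0.153). Its medians were 38.10 CPM in the basal and 35.2 CPM in the open field state, and its mean was lower after the open field in all 4 kinds of mice. None of these 8 values passed the threshold, and the median log2 difference of the 10 members was 0.095 over all mice, against -0.0041 for all genes tested.

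Within a single kind of mouse, with 10 to 14 libraries contrasted, no clock gene was called by edgeR. The log2 difference of Per1 was 0.46 in CB1-WT and 0.37 in CB1-KO mice of the Glu-CB1 line, and 0.34 and 0.26 in those of the GABA-CB1 line, with SEs of 0.099 to 0.128. Those of Per2 were 0.25, 0.51, 0.33 and 0.36 in the same order, with SEs of 0.176 to 0.208. Over all genes, edgeR called 0.0261%, 0.306%, 0.202% and 0.0911% in these contrasts. At an unadjusted p under 0.05 there were 1, 3, 1 and 1 clock genes, against 5.35%, 11.1%, 12.9% and 14.6% of all genes. DESeq2 called 15, 211, 172 and 194 genes and, of the clock genes, 0, 1, 0 and 0, the 1 being Per1 in Glu-CB1-KO mice (adjusted p = 0.0403). Without Glu-CB1-KO basal replicate 3, edgeR called Per2 in those mice (log2 0.64, adjusted p = 0.0496).

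**Figure D3:**
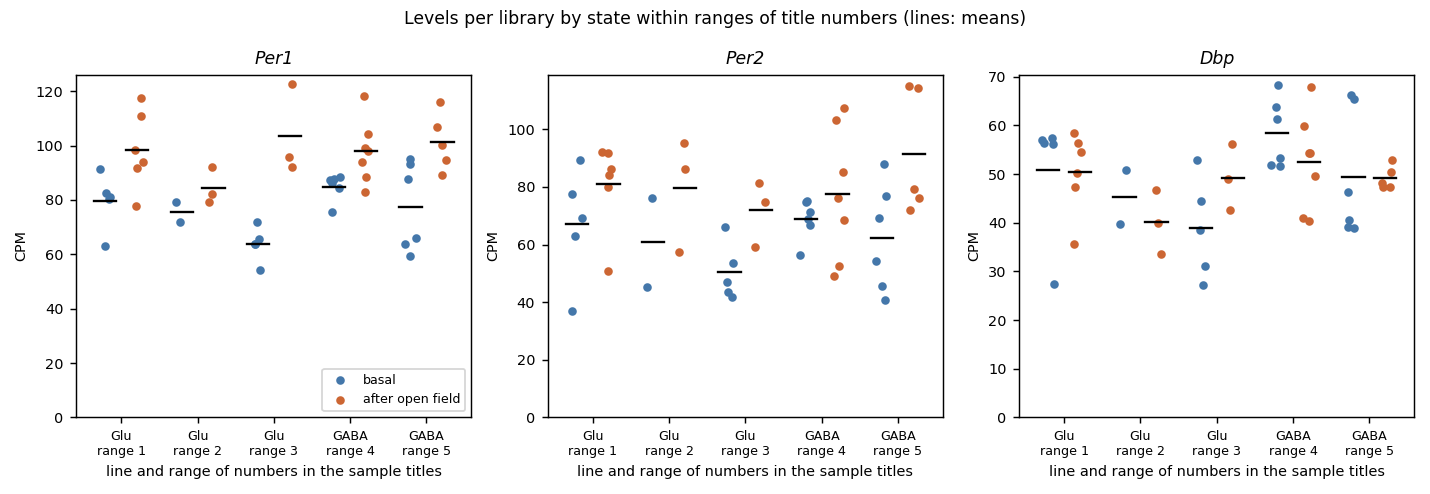
Per1, Per2 and Dbp in every library in CPM, split by line and by the range of the number that ends the sample title, with basal libraries in blue, open field libraries in orange and the mean as a line. The open field mean of Per1 and Per2 is above the basal mean in each of the 5 ranges, while that of Dbp is above it in 1 of 5.

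Inside the ranges of title numbers, which are sets of 5 to 13 mice, the size of the Per1 difference varied. It was 0.31, 0.20 and 0.69 (log2) in ranges 1, 2 and 3 of the Glu-CB1 line and 0.20 and 0.47 in ranges 4 and 5 of the GABA-CB1 line. Only the value of 0.69 was called by edgeR (adjusted p = 0.0493). Basal Per1 was lowest in that range, at 63.7 ± 6.33 CPM (SD, n = 5), and open field Per1 there was at 103.5 ± 16.7 CPM (n = 3). The values of Per2 in the same order were 0.29, 0.58, 0.51, 0.17 and 0.63 (log2), none of which was called. The labels do not say what the numbers stand for.

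A wider list of 27 symbols of clock genes, of which 26 were in the matrix, was set beside the members. It held Nocturnin under both of its symbols, Noct and Ccrn4l. Wherever this list is not named, clock genes means the 10 members. Over all mice, 5 of the 26 were called, 4 higher and 1 lower, a share to be read against the 8.63% of all genes. Nfil3, which encodes a repressor acting at the D-box, rose by 0.33 (log2, SE 0.093, edgeR adjusted p = 0.0192). Bhlhe40, which encodes the E-box repressor DEC1, rose by 0.19 (SE 0.039, adjusted p = 7.78e-04) and was also called in the GABA-CB1 line (0.24, SE 0.047, adjusted p = 0.0149). Csnk1d, a kinase of PER proteins, and Ccrn4l, a deadenylase also known as Nocturnin, rose by 0.05 and 0.07, and Usp2, a deubiquitinase, fell by 0.15. Clock (0.02, adjusted p = 0.870) and its paralogue Npas2 (-0.09, adjusted p = 0.322), as well as the D-box activators Tef (0.09, adjusted p = 0.0831) and Hlf (0.05, adjusted p = 0.805), were not called. No gene of the list was called in the Glu-CB1 line, where 6 of 26 had an unadjusted p under 0.05, against 12.8% of all genes, and 1.3% of all genes were called. The median over the list was -0.0057 over all mice.

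Lists of genes known to be induced by neuronal activity and by glucocorticoids gave the scale of the response. Of 12 activity-induced genes, 11 were called higher over all mice and 9 in each line, with a median log2 difference of 0.65. All 12 had a positive difference over all mice and in each line. Of all genes, 8.63% were called over all mice, 1.3% in the Glu-CB1 and 1.03% in the GABA-CB1 line. Egr4 and Fosb, both transcription factor genes, rose by 0.82 (SE 0.067, edgeR adjusted p = 1.04e-11) and 1.33 (SE 0.114, adjusted p = 3.00e-11). Because mice were selected on Arc expression, a member of that list, its count is not independent evidence of a response. The Per1 and Per2 values come from the same selected mice, and the part of the selection in them was not tested. Of 12 glucocorticoid-induced genes, 7 were called higher over all mice, 3 in the Glu-CB1 and 2 in the GABA-CB1 line, with a median of 0.26. Among them were Errfi1 at 0.37 (SE 0.043) and Sgk1 at 0.49 (SE 0.081), and all 12 had a positive difference over all mice. The Per1 and Per2 values lay below the median of the first list and above that of the second. Of the cell type lists, 1 of 5 microglial and 1 of 5 endothelial markers were called higher over all mice (Tmem119 by 0.12 and Slc2a1 by 0.19), and no other gene was called. The medians of these 2 lists were -0.011 and -0.064, and P2ry12 at -0.08, Cx3cr1 at -0.07 and Cldn5 at -0.19 had unadjusted p of 0.00729, 0.0231 and 0.00951 without passing the test. The part of any of these in the Per1 and Per2 values was not tested.

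The second question was whether loss of CB1 from either neuron type altered the clock genes. No clock gene was called between CB1-KO and CB1-WT littermates in either line or state. By edgeR's quasi-likelihood test (12 libraries per comparison), 0 of 10 were called in the Glu-CB1 line at basal, where 0.0198% of all genes were called, and 0 of 10 after the open field, where the share was 0.272%. In the GABA-CB1 line it was 0 of 10 at basal, with 0.245% of all genes called, and 0 of 10 after the open field, with 0.0199%. None of the 40 values reached an unadjusted p under 0.05, against 3.57%, 6.97%, 8.16% and 13.2% of all genes in the same order. In the wider list, 0, 2, 1 and 5 of 26 genes did, and 0 were called. DESeq2 called 12, 123, 110 and 152 genes, none of them a clock gene. Median differences over the 10 genes were -0.0012, -0.0030, 0.030 and 0.030 (log2) in the same order. Cell type markers differed in some of these comparisons. Choroid plexus medians were 0.78, 0.43, -1.57 and 2.92 (log2), with 1, 1, 4 and 5 of 6 genes at an unadjusted edgeR p under 0.05. So were 1, 4, 0 and 1 of 5 CA1 markers and 0, 3, 2 and 2 of 6 CA3 and CA2 markers. Their part in the clock gene values was not tested.

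Per1 differed by 0.00 (95% interval -0.22 to 0.22) in the basal Glu-CB1 and by 0.13 (-0.077 to 0.34) in the basal GABA-CB1 comparison. After the open field it differed by -0.08 (-0.29 to 0.12) and 0.06 (-0.10 to 0.22). Cry2 was measured more tightly, with differences of 0.01 to 0.05 and intervals within -0.099 and 0.17. Cry1 had wide intervals and was higher in CB1-KO in all 4 comparisons, by 0.26, 0.35, 0.19 and 0.16, with unadjusted p from 0.104 to 0.547. Its libraries overlapped fully: basal Glu-CB1-KO mice ran from 9.87 to 29.4 CPM and their CB1-WT littermates were at 19.3, 12.9, 16.1, 17.2 and 12.0 CPM. Arntl was at 41.6 ± 5.35 CPM (SD, n = 7) in basal Glu-CB1-KO and 36.8 ± 5.61 CPM (n = 5) in basal Glu-CB1-WT mice, a log2 difference of 0.18 (edgeR adjusted p = 0.999). The remaining genes lay between -0.13 and 0.19.

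**Figure D4:**
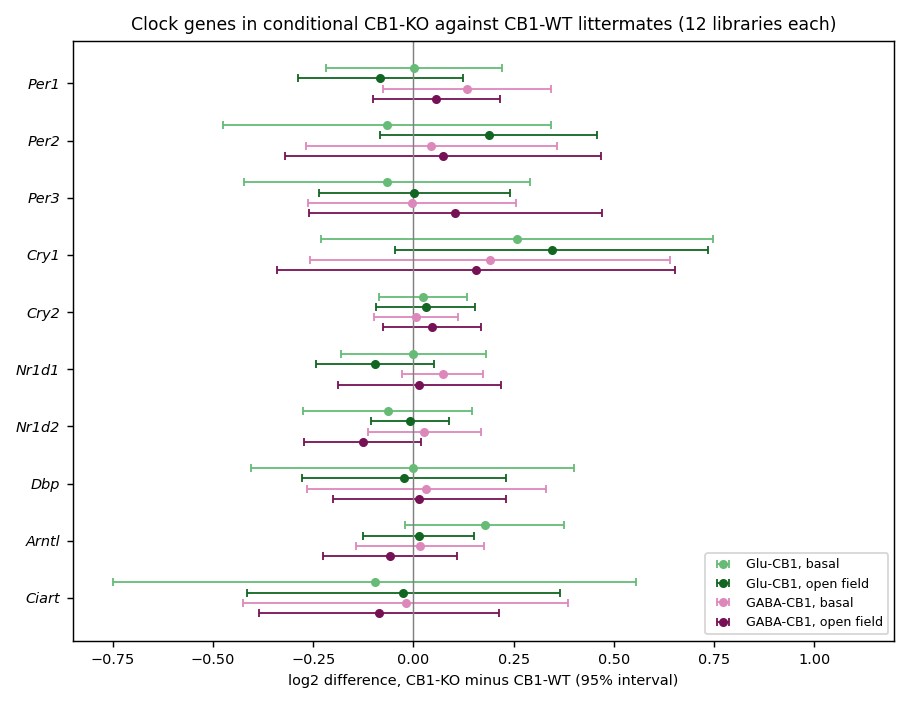
Log2 difference between CB1-KO and CB1-WT libraries for each clock gene in the 4 comparisons of line and state, with 95% intervals by normal approximation, 12 libraries each. Every interval crosses 0, and those of Cry2 stay within -0.099 and 0.17.

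Differences between effects were tested as well. A genotype effect that differed between states was called for no clock gene by edgeR in either line, where 0% of all genes were called. In the Glu-CB1 and GABA-CB1 lines, 379 of 15355 and 2237 of 15374 genes, and no clock gene, had an unadjusted p under 0.05. In the wider list, 0 and 5 of 26 genes did. DESeq2 called 0 and 63 genes. A genotype effect that differed between the lines was called for no clock gene at basal, where 0.279% of genes were called, or after the open field, where 0.568% were called. No clock gene had an unadjusted p under 0.05 in either, against 8.56% and 10.8% of all genes, and DESeq2 called 79 and 200 genes and no clock gene. For Per2 the genotype-by-state term was 0.26 (95% interval -0.28 to 0.79) in the Glu-CB1 line and 0.03 (-0.52 to 0.58) in the GABA-CB1 line. Between the CB1-WT mice of the lines no clock gene was called (0% of all genes called by edgeR and 0 by DESeq2, 571 with an unadjusted p under 0.05), the member nearest to the threshold being Nr1d1 at 0.12 higher in the GABA-CB1 line (SE 0.066, unadjusted p = 0.0822). A line difference in the open field effect was called for no gene (0% by edgeR, 0 by DESeq2, 327 genes and no clock gene with an unadjusted p under 0.05).

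Apart from the group comparisons, the clock genes varied strongly from mouse to mouse. After the mean of its group was removed from each library, the SD of Ciart was 0.50 and that of Cry1 0.49 on the log2 scale, followed by Per2 at 0.38, Per3 at 0.33 and Dbp at 0.32. Across the 15570 genes tested the median SD was 0.12, so that Ciart and Cry1 stood above 96.4% and 96.1% of all genes and Dbp above 86.1%. Per1 was steadier at 0.21, Arntl, Nr1d1 and Nr1d2 lay at 0.17, 0.17 and 0.16, and Cry2 at 0.11 was close to the median of all genes. Low counts add to such spreads, and Ciart and Cry1 had the fewest reads of the members, with 104 to 467 and 272 to 978 reads per library. The widest contrast within a group was that of Ciart in basal Glu-CB1-KO mice, where the highest library (12.2 CPM) held 3.71 times the lowest (3.30 CPM).

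This variation was shared. The first principal component of the 10 genes' deviations held 70.6% of their variance, with Arntl of opposite sign to the other 9 and Nr1d1 close to 0. Ciart followed Dbp most closely, with Pearson's r = 0.94 and Spearman's rho = 0.92 over the 48 libraries. Nr1d2 had r = 0.87 and rho = 0.86, and Cry2 had r = 0.81 and rho = 0.80. Per2, Per3, Per1 and Cry1 had r of 0.76, 0.74, 0.69 and 0.69, with rho of 0.73, 0.75, 0.68 and 0.70. Arntl ran against Dbp at r = -0.80 and rho = -0.81. Each of these 8 relations had p = 1e-05 in 100000 two-sided permutations within groups, the smallest these could give, and an adjusted p of 1.12e-05 over 9 relations for both r and rho. Without the 2 libraries farthest from the median of Dbp (Glu-CB1-KO basal replicate 2 and Glu-CB1-WT basal replicate 2), r was 0.93 for Ciart, 0.83 for Nr1d2, 0.81 for Cry2, 0.74 for Per2, 0.75 for Per3, 0.70 for Per1, 0.69 for Cry1 and -0.77 for Arntl.

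The extremes show the pattern in single mice. Glu-CB1-WT basal replicate 2 had the lowest Dbp at 27.1 CPM, with Ciart at 3.87 CPM, Nr1d2 at 80.8 CPM and Arntl at 42.99 CPM. Replicate 1 of the same group had Dbp at 57.0 CPM, Ciart at 12.9 CPM, Nr1d2 at 123.7 CPM and Arntl at 32.1 CPM. Within this group of 5 mice of a single genotype and state, the ratio of Dbp to Arntl went from 0.631 to 1.84. Over all basal libraries that ratio ran from 0.543 to 2.09 (median 1.35), and over all open field libraries from 0.810 to 2.24 (median 1.41). Replicate 1 was in range 1 of the title numbers and among the 14 libraries that stood apart. Replicate 2 was in range 3 and not among them. Basal Dbp was at 50.8 ± 13.1 CPM (SD, n = 5) in range 1 and 38.8 ± 10.3 CPM (n = 5) in range 3. Yet Glu-CB1-KO basal replicate 2, in range 1 and apart, was at 27.4 CPM. The part of this split in the contrast was not tested.

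**Figure D5:**
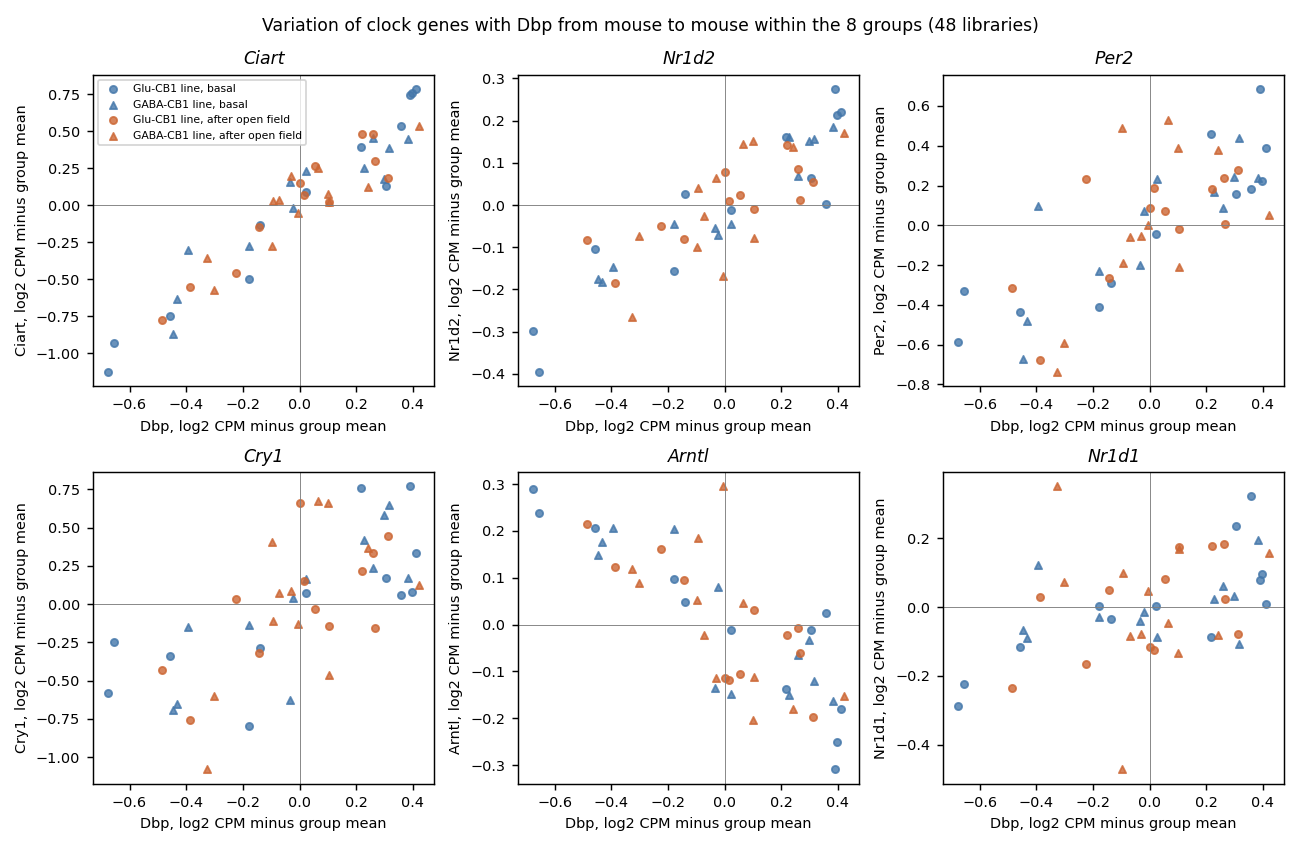
Deviation of 6 clock genes from their group mean against that of Dbp, in log2 CPM, for 48 libraries; colour gives the state and symbol the line. Ciart, Nr1d2, Per2 and Cry1 rise with Dbp (r = 0.94, 0.87, 0.76 and 0.69), Arntl falls (r = -0.80), and Nr1d1 is spread widely (r = 0.43).

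Nr1d1 was the exception. Although the gene is a classic target of CLOCK and BMAL1, its r with Dbp was 0.43 and its rho 0.44 (permutation p = 0.00646 and 0.00519), and r was 0.32 without the same 2 libraries. Within the ranges of title numbers, r was 0.62 and 0.88 in the Glu-CB1 line (n = 11 and 8) and -0.094 and -0.039 in the GABA-CB1 line (n = 13 and 11), so that the relation did not hold within the ranges of the GABA-CB1 line. In the GABA-CB1-KO open field group, replicate 1 combined the highest Nr1d1 of all libraries (118.8 CPM) with the lowest Cry1 and Per3 (9.76 and 48.4 CPM), and replicate 4, the library richest in Ttr, combined the lowest Nr1d1 (67.2 CPM) with the highest Per2 (115.1 CPM). The other 8 genes kept their sign in all 4 ranges with at least 6 libraries, with r from 0.89 to 0.97 for Ciart and from -0.91 to -0.66 for Arntl. Dbp itself showed r = 0.20 with the total count (permutation p = 0.287), r = 0.28 with the first component of all libraries (p = 0.0948) and r = -0.078 with Ttr (p = 0.609), none of which passed the test. For the first component, rho was 0.31 (permutation p = 0.0581), and r was 0.33 without the same 2 libraries. A weak relation of Dbp to that component is thus not excluded.

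Outside the 10 members, the genes whose deviations were most like those of Dbp among 15560 others were Tspan4 (r = 0.83), Bhlhe41, which encodes the clock repressor DEC2 (r = 0.83), Fmo2 (r = 0.78), Mthfd1l (r = 0.78) and Rras (r = 0.76). Those most opposed were Kank1 (r = -0.75), Hrk (r = -0.73), Wwtr1 (r = -0.72), Fgf1 (r = -0.70) and Ppp2r2c (r = -0.69). These are given as a description over 48 libraries, ranked after the fact. Ciart and Nr1d2 were closer to Dbp than any of the 15560 genes, Cry2 was passed by 2 of them, Per2 by 5, Per3 by 7, Per1 by 10, Cry1 by 11 and Nr1d1 by 400, and none was as opposed as Arntl.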

How the data were processed

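Hippocampal CA libraries of 48 mice were grouped by the labels into 8 groups of line, genotype and state. The authors amplified RNA with the NuGEN Ovation RNA-Seq System V2, removed adapters with bbduk and mapped the reads to mm10 using STAR (2.6.0a, per the submitters' processing notes), and featureCounts (1.6.2) gave strand-specific counts per gene. The values they deposited are raw counts per gene without normalization, in which 3596 of 24421 genes had no count in any library. Totals were 25892654 to 34091080 counts per library (median 30975561). There are no molecular identifiers, so counting error is a lower limit, and each value is given with the spread between mice. Over 123 pairs of libraries within groups none agreed within sampling noise (lowest chi-square per degree of freedom 2.93).

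From these counts, levels were computed as CPM with TMM factors over all 48 libraries, and RPKM from exon lengths in the matrix. Comparisons used edgeR 4.0.16 (R 4.3.3): TMM, filterByExpr, glmQLFit and glmQLFTest, with Benjamini-Hochberg adjustment over all genes tested and a threshold of 0.05, in 17 contrasts. Intervals are 95% by normal approximation from the SE. Log2 CPM for correlations and SDs used a prior count of 2. Correlations used deviations from group means, 100000 permutations within groups and numpy 2.4.6. Scripts were tested on simulated data. DESeq2 1.42.0, RLE size factors, other filters, a covariate for the range of title numbers, a replicate block and leaving out each library were also tried. The 10 genes and all lists were chosen with earlier results of these data known. The text names all 10 members, wider clock genes called for the open field or the genotype plus Clock, Npas2, Tef and Hlf, the 5 genes most and least like Dbp, and from the activity and glucocorticoid lists the 2 with the smallest p; Cnr1, Ttr, Sphk2 and D930015M05Rik and the cell type markers named were added for checks.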

Additional observations from a re-analysis of the deposited data

Results flagged for a closer look

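Of 80 sets of 1 clock gene in 1 group, 2 had a single library far from the others by Dixon's test, which flags about 1 set in 20 by chance. Per1 in GABA-CB1-KO basal replicate 3 was at 59.3 CPM, below the other 5 mice of the group, and without that library the open field effect on Per1 in the GABA-CB1 line was 0.26 (log2, edgeR adjusted p = 0.0560). Per2 in Glu-CB1-KO open field replicate 3 was at 50.7 CPM, below the other 6 mice of the group.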

How the results depend on the processing

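Over 10 comparisons of genotype, interaction and line, no clock gene was called in any of 336 refits. Over all mice the count of 2 clock genes became 1 (Per1) without the 14 libraries that stood apart and 1 without the 3 rich in Ttr, both alternatives chosen after seeing the data, and within the ranges of title numbers it was 0, 0, 1, 0 and 0. The other alternatives and all 48 refits without 1 library gave 2. In the Glu-CB1 line the count of 1 became 0 within ranges 1 and 2. In the GABA-CB1 line it became 0 in both ranges, in a fit of all 48 libraries (Per1 adjusted p = 0.0613), without the 14 and without the 3 libraries, and it was 0 to 1 when 1 library was left out. In Glu-CB1-KO mice the count of 0 became 1 with DESeq2 and was 0 to 1 when 1 library was left out. Per1 and Per2 kept their positive sign in every refit of the 3 open field comparisons. The r of Nr1d1 with Dbp turned from 0.43 to -0.0939 and -0.0391 within the ranges of the GABA-CB1 line. Same-numbered CB1-WT and CB1-KO libraries of a line and state had r from -0.33 to 0.32 in their deviations, over 0.1 in 4 of 21 pairs. Basal and open field libraries were not compared in this way. Such r values cannot decide whether the numbers pair the mice. With the replicate block, 0 clock genes were called in the GABA-CB1 line (Per1 log2 0.30, adjusted p = 0.134), 1 in the Glu-CB1 line and 2 over all mice.

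Counts over all genes moved more. Across the alternatives they ran from 2 to 12 (3 as reported) and from 3 to 123 (41 as reported) for the genotype in the basal and open field Glu-CB1 line, and from 8 to 110 (37 as reported) and 1 to 152 (3 as reported) in the GABA-CB1 line. For the open field they ran from 131 to 374 (200 as reported), 18 to 293 (159 as reported) and 949 to 1784 (1344 as reported) in the Glu-CB1 line, the GABA-CB1 line and all mice. Within CB1-WT and CB1-KO mice they ran from 1 to 15 (4 as reported) and 9 to 211 (47 as reported) in the first line, and from 1 to 172 (31 as reported) and 0 to 194 (14 as reported) in the second. Between the lines the genotype effect gave 30 to 79 (43 as reported) at basal and 44 to 200 (87 as reported) after the open field, and the genotype-by-state term of the GABA-CB1 line 0 to 63 (0 as reported). The cause of these shifts was not tested.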
